A study of Mus musculus with 2 samples.

Results

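The 9 genes described here handle peroxides, oxidised lipids, iron and other metals in the cell: Gpx1, Gpx2, Gpx4, Gstm1, Alox15, Slc40a1, Tfrc, Mt1 and Mt2. They were taken by gene symbol from the 32285 genes counted in 2 single-cell RNA sequencing libraries of mouse somitic gastruloids, and all 9 had at least 10 unique molecular identifiers (UMIs) over both libraries. The list was drawn up with whole-library results of these same libraries known, so the difference between the libraries describes the genes and supports nothing. Gastruloids are cultured aggregates of embryonic stem cells in which several embryonic lineages arise. Both libraries came from the E14_triple reporter line, in which the endogenous transcription factor Zeb2 carries an HA-FKBP12F36V tag, so the untreated cells carry the tag as well. Each aggregate was started from 300 cells, received 3 µM CHIR99021 from 48 h and was embedded in 10% Matrigel at 96 h. One pool of about 32 gastruloids was left untreated and the other received 100 nM dTAG-13, a compound that directs a protein bearing this tag to degradation, at 72 and 96 h. The series text names DMSO where the sample label says untreated, and no harvest hour is given in the sources used here. There was 1 library per group, so there is no replicate check and no test between groups. All intervals are 95% intervals of counting error, and other differences between the 2 pools cannot be told apart from the treatment.

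Glutathione peroxidases reduce peroxides with glutathione as electron donor, and Gpx4 is the family member that reduces lipid peroxides within membranes, the step that holds back ferroptosis, an iron-dependent form of cell death. Lipoxygenases such as Alox15 add oxygen to polyunsaturated lipids, while transferrin receptor brings iron into the cell and ferroportin, the product of Slc40a1, lets it out. Metallothioneins bind zinc and copper, and their genes are switched on by metals through the factor Mtf1 acting on metal response elements.

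Sequences that bear on how these genes are known to be regulated are shown first. Mt2 and Mt1 lie side by side on the plus strand of chromosome 8 (GRCm38), with 5513 bases between the end of Mt2 and the start of Mt1. The 250 bases before the RefSeq start of each (GRCm38.p6) are printed because Mt2 was the gene whose pattern over the gates described below was most like that of Mt1. Mt2 is given from chr8:94172368-94172617 and Mt1 from chr8:94178839-94179088, and capitals mark the core of the metal response element, searched as TGCACNC or TGCGCNC on both strands.
Mt2: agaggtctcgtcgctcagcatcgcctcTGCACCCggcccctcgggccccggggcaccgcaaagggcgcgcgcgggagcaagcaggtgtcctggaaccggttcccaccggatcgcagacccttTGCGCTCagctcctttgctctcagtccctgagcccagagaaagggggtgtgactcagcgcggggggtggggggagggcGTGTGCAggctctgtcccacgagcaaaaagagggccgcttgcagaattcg
Mt1: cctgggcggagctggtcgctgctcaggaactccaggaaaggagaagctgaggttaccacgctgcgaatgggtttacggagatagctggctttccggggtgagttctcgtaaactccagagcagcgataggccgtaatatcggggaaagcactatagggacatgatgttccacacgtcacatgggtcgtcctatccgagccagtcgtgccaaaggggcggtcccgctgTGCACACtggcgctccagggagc
The Mt2 window holds 3 cores and the Mt1 window 1, while the windows that run a further 50 bases past the start hold 4 and 3. Of 32851 RefSeq windows, 21.4% hold at least 1 core and 5.17% at least 2 in the shorter form, and 25.7% hold at least 1 in the longer. In the longer form 7.11% hold at least 2, 1.97% at least 3 and 0.517% at least 4. Windows of Gstm1 and Tfrc hold cores too, at most 1 and 2 in the longer form. The Mt2 window also holds 1 match to the antioxidant response core, TGACNNNGC on either strand, which 10.2% of windows hold. RefSeq windows were matched for 7 of the 9 genes. A match is a description of letters and not a site of binding.

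Slc40a1 and Tfrc carry iron responsive elements, hairpins bound by the iron regulatory proteins Aco1 and Ireb2. In a 5′ untranslated region such a hairpin limits translation, and in a 3′ untranslated region it protects the message. A search of GENCODE M21 transcripts for a bulged C, 5 paired bases, the loop CAGTGN and 5 paired bases found 1 site in the 5′ region of Slc40a1 and 4 in the 3′ region of Tfrc. The loop is in capitals, and the sites of the ferritin genes Fth1 and Ftl1 (both 5′) are given for comparison.
Slc40a1: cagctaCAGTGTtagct
Tfrc a: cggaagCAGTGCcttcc
Tfrc b: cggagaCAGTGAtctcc
Tfrc c: cgggaaCAGTGTttccc
Tfrc d: cgggagCAGTGTcttcc
Fth1: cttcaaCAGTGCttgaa
Ftl1: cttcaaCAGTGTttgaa
Of 21877 genes searched, 31 (0.142%) have such a sequence in the 5′ region and 129 (0.590%) in the 3′ region. RNA counts do not show what these hairpins do to translation.

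The deposited tables hold 158002807 UMIs in 7276 barcodes (untreated) and 176677276 UMIs in 7873 barcodes (dTAG-13). After the cell filters, 6231 and 6688 cells remained, with medians of 20073 and 20207 UMIs and of 4.56% and 4.78% mitochondrial UMIs. The libraries shared 14 barcodes, 10 of them among the kept cells. Zeb2 RNA was at 67.9 CPM untreated (counts per 1000000 UMIs) and 94.6 CPM in the dTAG-13 library, which does not check the label because the compound acts on the protein. Summed over the list, 10 erythroid markers stood at 0.878 and 1.21 CPM, with 7 of 10 detected in each library and Hbb-bt and Hbb-bs at 0 in both. The 9 macrophage markers stood at 2.80 and 4.41 CPM, with C1qa at 0 in both libraries, and 10 extraembryonic and visceral endoderm markers at 7.71 and 6.60 CPM. A list of 16 dissociation and immediate early genes summed to 272 CPM untreated and 328 CPM with dTAG-13, and its part in the differences below was not tested.

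Over whole libraries, 6 of the 9 genes were at least 1.5-fold higher in the dTAG-13 library and none was that much lower. Of 19470 genes with at least 10 UMIs, 2.32% passed this fold upward and 0.832% downward. Since the genes were chosen from this contrast, nothing is read from the count. The genes past the fold were Gpx2, Gstm1, Alox15, Slc40a1, Mt1 and Mt2, and the others were Gpx1, Gpx4 and Tfrc. The median log2 ratio, computed with 1 CPM added to both sides, was 0.83 over the 9 genes and 0.02 over all genes. In a sum over all cells, fewer cells of a type and less RNA per cell cannot be told apart, and for this reason the levels are then given within gates. A gate is the set of cells with at least 2 UMIs of 1 marker, and gates overlap and are not cell types.

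**Figure D1:**
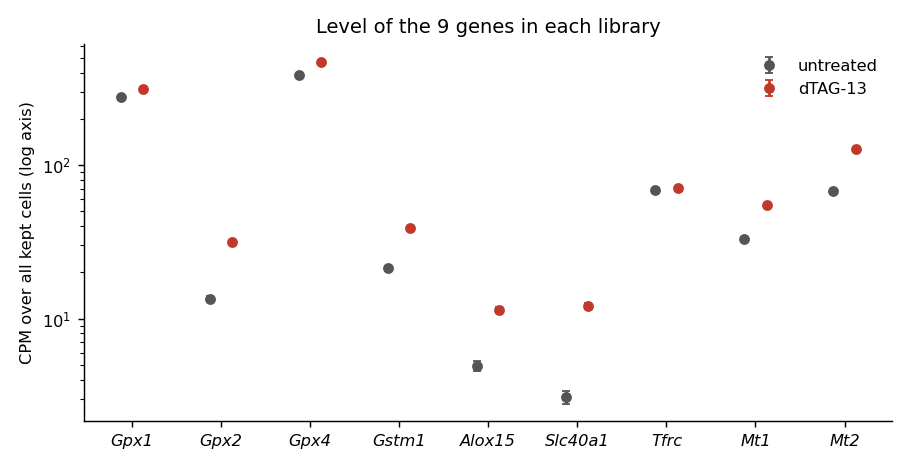
CPM of each gene over all kept cells of the untreated library (grey) and the dTAG-13 library (red), on a log axis, with exact Poisson intervals. Red lies well above grey for Slc40a1 (3.06 and 12.1 CPM) and Gpx2 (13.3 and 31.6 CPM), and the points of Tfrc (68.7 and 70.7 CPM) nearly meet.

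The markers of the 8 gates are known from these lineages: T for posterior progenitors and notochord, Sox2 for neural and progenitor cells, Tbx6 for presomitic mesoderm, Meox1 for somites, Sfn for surface ectoderm epithelium, Pim2 for epiblast-like cells, Sox17 for endoderm and Zfp42 for naive pluripotent cells. The gates differed in size between the libraries. The Sfn gate held 319 untreated and 1338 dTAG-13 cells, and the Pim2 gate 258 and 895. The Tbx6 gate held 507 and 179 cells, the T gate 1387 and 959, and the Meox1 gate 913 and 626. The Zfp42 gate held 524 and 765 cells, the Sox2 gate 2989 and 3047, and the Sox17 gate 110 and 164. In the Sox17 gate the 8 definitive endoderm markers, Sox17 itself among them, summed to 4214 and 3122 CPM, against 183 and 288 CPM in all cells. In the Sox2 gate the 9 pluripotent markers summed to 934 and 1162 CPM. The 8 spinal cord markers, Sox2 itself among them, were below these at 369 and 280 CPM. In the untreated Sfn gate the pluripotent markers, at 2140 CPM, were above the non-neural ectoderm ones, Sfn itself among these, at 854 CPM. With dTAG-13 the pluripotent markers were below them, at 834 against 1116 CPM. The gates are therefore called by their marker gene only. Cells outside every gate numbered 1184 and 1479.

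Gpx2, a peroxidase of gut and other epithelia (ENSMUSG00000042808; minus strand of chromosome 12, 76792333 to 76795554, GRCm38), was at 13.3 CPM untreated (12.7 to 13.9) and 31.6 CPM with dTAG-13 (30.7 to 32.5). The log2 ratio was 1.19, from 1865 and 4790 UMIs. The dTAG-13 library was higher and the counting intervals did not overlap. Its highest level lay in the Sox17 gate, at 193 CPM in both libraries, where the log2 ratio was 0.00. After each cell was thinned to 5000 UMIs, 40.9% of untreated and 49.4% of dTAG-13 Sox17 gate cells held a Gpx2 UMI. In the Meox1 gate, the lowest for the gene, the thinned shares were 0.110% and 1.76%. They are given for comparison and not as a fixed background, since the level there also differed, at 1.61 and 6.53 CPM. Without thinning the Meox1 gate shares were 1.53% and 5.91%, at median depths of 20926 and 21828 UMIs. Those of the Sox17 gate were 66.4% and 65.2%, at 19609 and 23596 UMIs.

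Gpx2 differed between the libraries in other gates. In the T gate the level stood at 6.90 CPM untreated and 37.1 CPM with dTAG-13, a log2 ratio of 2.27, and in the Sox2 gate it was 11.1 and 29.3 CPM, a log2 ratio of 1.32. In the Zfp42 gate, the next highest in both libraries, it was 48.9 and 60.4 CPM. The Sfn gate gave 31.2 and 32.3 CPM and the Pim2 gate 22.9 and 25.1 CPM, in both of which the intervals overlapped. In the order of levels the T gate stood at place 6 of the 8 gates untreated and at place 3 with dTAG-13. Cells in the T gate alone, in no other gate, gave 8.19 and 44.4 CPM, so the difference was as large in those cells. The gene overlaps Fntb on the opposite strand, which had 2486 and 3322 UMIs, and since the sources used here do not give the use of strand in the counting, their reads cannot be fully told apart.

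Gpx4, the lipid peroxide reducing enzyme (ENSMUSG00000075706; plus strand of chromosome 10, 80047166 to 80056439), stood at 386 CPM untreated (382 to 389) and 473 CPM with dTAG-13 (469 to 476). The log2 ratio of 0.29 stayed within the 1.5-fold limit. Its level marked the Zfp42 gate, with 1322 CPM untreated and 1237 CPM with dTAG-13, against 257 and 354 CPM in the T gate and 243 and 359 CPM in the Tbx6 gate. This gate held 8.41% of the untreated cells and 19410 of their 53984 Gpx4 UMIs. The cell with most Gpx4 carried 326 UMIs of it untreated and 247 with dTAG-13, while the median cell with any carried 6 and 7. In the Sfn gate Gpx4 was lower with dTAG-13, at 773 and 507 CPM, a log2 ratio of -0.61. Among Sfn gate cells without Zfp42 the levels were 279 and 301 CPM and the log2 ratio was 0.11, a split chosen after seeing the data. Among those with Zfp42 the levels were 1491 and 1127 CPM and the log2 ratio was -0.40.

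Gpx1, the most widely expressed glutathione peroxidase (ENSMUSG00000063856; plus strand of chromosome 9, 108338903 to 108340343), was at 279 CPM untreated (276 to 282) and 315 CPM with dTAG-13 (312 to 318). Its log2 ratio was 0.17 in the whole library and between -0.24 and 0.23 in the 8 gates, none past 1.5-fold. The Zfp42 gate was highest, at 541 and 540 CPM, and the Meox1 gate lowest, at 231 and 258 CPM.

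Gstm1 encodes a mu-class glutathione transferase that couples glutathione to reactive compounds (ENSMUSG00000058135; minus strand of chromosome 3, 108012255 to 108017973). It was at 21.3 CPM untreated (20.5 to 22.1) and 38.7 CPM (37.7 to 39.7) with dTAG-13, for a log2 ratio of 0.83. The gene was higher with dTAG-13 in the T gate (15.9 and 35.3 CPM) and in the Sox2 gate (25.7 and 49.0 CPM). In the Zfp42 gate, where its level was highest in both libraries, it was 76.1 and 82.6 CPM. The mu-class genes are close copies, so how the counting shared reads among them is uncertain. Among its relatives Gstm2 was at 8.68 and 15.4 CPM over whole libraries, and in the T gate at 5.81 and 13.1 CPM.

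Alox15, an arachidonate lipoxygenase (ENSMUSG00000018924; minus strand of chromosome 11, 70344152 to 70352031), was at 4.92 CPM untreated (4.56 to 5.30) and 11.3 CPM (10.8 to 11.9) with dTAG-13, for a log2 ratio of 1.06 from 689 and 1718 UMIs. Its place among the gates differed between the libraries. Untreated, the Pim2 gate was highest at 17.6 CPM (14.6 to 21.0), followed by the T gate at 10.3 CPM (9.28 to 11.5). With dTAG-13 the T gate was highest at 32.6 CPM (30.4 to 35.0), followed by the Pim2 gate at 19.1 CPM (17.4 to 20.8). The T gate held 51.1% of all Alox15 UMIs untreated and 45.2% with dTAG-13, from 22.3% and 14.3% of the cells. After thinning, 5.63% of untreated and 14.4% of dTAG-13 T gate cells held a UMI, against 0.552% and 1.60% in the Meox1 gate, while unthinned shares were 16.9% and 36.5% in the T gate. T gate cells in no other gate had 10.6 and 34.2 CPM, a log2 ratio of 1.60.

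Other values of the T gate also differed between the libraries, in both directions. In it, 6 notochord markers summed to 32.0 CPM untreated and 68.4 CPM with dTAG-13, with all 6 detected, and 8 definitive endoderm markers to 81.7 and 218 CPM, with all 8 detected. The 9 non-neural ectoderm markers summed to 204 and 580 CPM, and the 9 pluripotent markers to 84.8 and 208 CPM. Lower with dTAG-13 were the neuromesodermal progenitor markers, T itself among them, at 1249 and 1103 CPM. So were the presomitic mesoderm markers, at 872 and 662 CPM, and the spinal cord markers, at 186 and 128 CPM. In T gate cells of no other gate, the non-neural ectoderm markers summed to 223 and 558 CPM, the definitive endoderm markers to 85.9 and 227 CPM, the notochord markers to 53.2 and 117 CPM and the pluripotent markers to 49.8 and 58.1 CPM. The dissociation list summed to 203 CPM untreated and 313 CPM with dTAG-13 in the T gate, and the median mitochondrial share was 4.59% and 5.10%. The part of these cells and values in the differences of Gpx2, Gstm1, Alox15, Slc40a1, Mt1 and Mt2 was not tested.

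**Figure D2:**
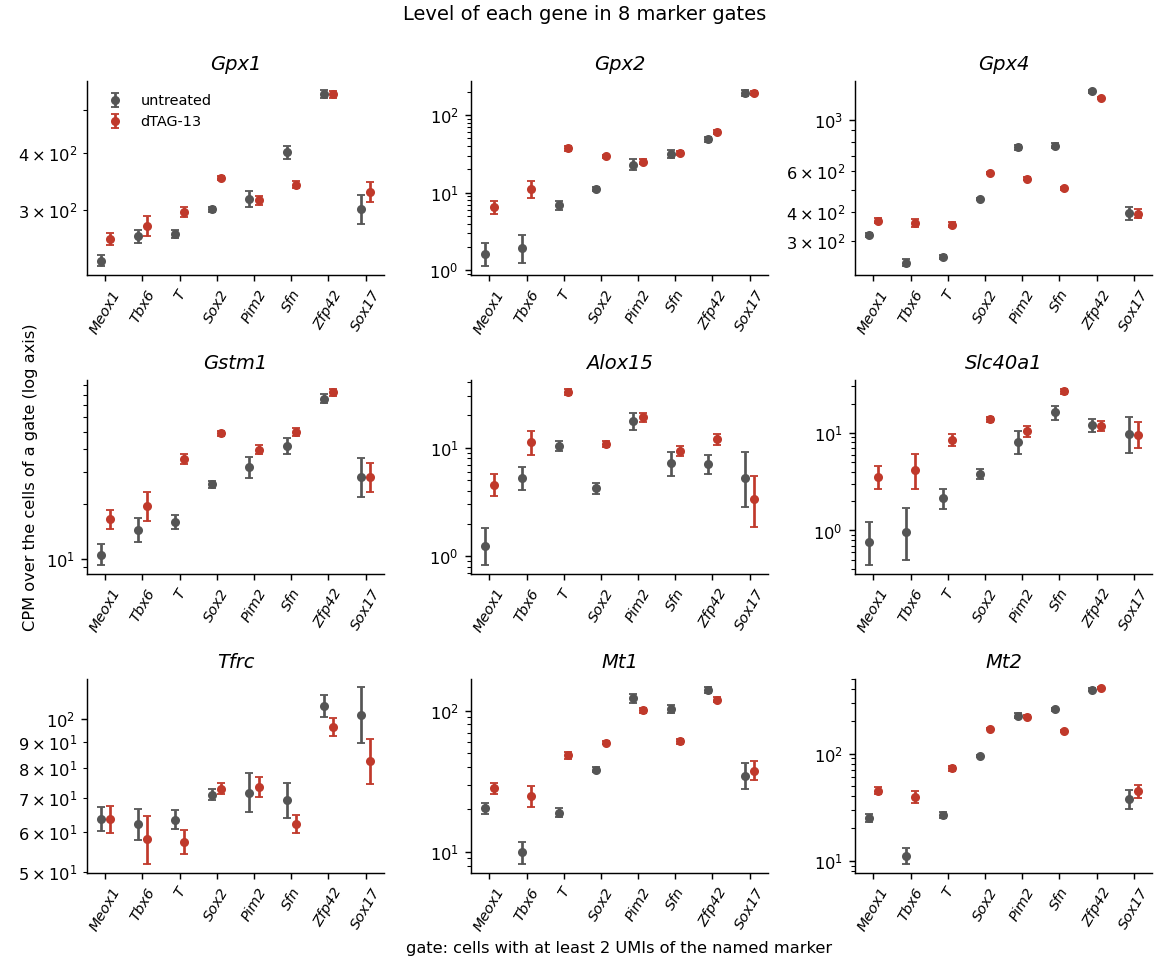
CPM of each gene over the cells of each of 8 marker gates, untreated in grey and dTAG-13 in red, on log axes that differ between panels, with exact Poisson intervals. Gpx2 peaks in the Sox17 gate at 193 CPM in both libraries, Slc40a1 in the Sfn gate (16.2 and 26.8 CPM), and Gpx4 and Mt2 in the Zfp42 gate, while the red Alox15 point of the T gate reaches 32.6 CPM.

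Slc40a1, the iron exporter ferroportin (ENSMUSG00000025993; minus strand of chromosome 1, 45908068 to 45926523), had the greatest difference of the 9 genes. It was at 3.06 CPM untreated (2.78 to 3.37) and 12.1 CPM (11.6 to 12.7) with dTAG-13, from 429 and 1839 UMIs. The log2 ratio was 1.69, which ranked 13 from the top among 13023 genes at 1 CPM or more in either library. Without the added CPM the ratio was 3.96-fold. The Sfn gate had the highest level in both libraries, at 16.2 CPM untreated (13.7 to 19.1) and 26.8 CPM with dTAG-13 (25.1 to 28.5). It held 33.1% of the gene's untreated UMIs and 52.4% of those with dTAG-13, from 319 of 6231 and 1338 of 6688 cells. In the untreated library the intervals of the Sfn, Zfp42, Sox17 and Pim2 gates each overlapped that of its neighbour in this order, and with dTAG-13 the Sfn gate stood clear of the others.

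Slc40a1 was also higher with dTAG-13 in gates where it was scarce. The Sox2 gate had 3.84 and 13.8 CPM, the T gate 2.14 and 8.49 CPM, and the Meox1 gate 0.761 and 3.54 CPM. Cells in no gate had 1.95 and 7.82 CPM. In the Sox2 gate 1.51% of untreated and 6.54% of dTAG-13 cells held a UMI after thinning, against 0.442% and 1.44% in the Meox1 gate. Unthinned, the Sox2 gate shares were 6.09% and 22.1%. In the Zfp42 gate the gene was at 12.1 and 11.7 CPM and in the Sox17 gate at 9.78 and 9.58 CPM, with overlapping intervals in both.

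Tfrc, the transferrin receptor (ENSMUSG00000022797; plus strand of chromosome 16, 32608920 to 32632794), was at 68.7 CPM untreated (67.3 to 70.0) and 70.7 CPM with dTAG-13 (69.4 to 72.0). Its log2 ratio was 0.04 in the whole library, with a counting interval of the unadjusted log2 ratio from 0.00 to 0.08, and lay between -0.30 and 0.04 in the 8 gates. The gates spanned 62.1 to 106 CPM untreated and 57.3 to 96.6 CPM with dTAG-13, with the Zfp42 gate highest in both. The genes of iron export and uptake thus had log2 ratios of 1.69 and 0.04 side by side.

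Mt1 (ENSMUSG00000031765; chromosome 8, 94179082 to 94180327) and Mt2 (ENSMUSG00000031762; chromosome 8, 94172664 to 94173568) encode metallothioneins, and their upstream windows are printed above. Mt1 was at 32.9 CPM untreated (31.9 to 33.8) and 54.7 CPM (53.5 to 55.9) with dTAG-13, for a log2 ratio of 0.72. Mt2 was at 67.7 CPM untreated (66.3 to 69.1) and 127 CPM (125 to 129) with dTAG-13, for a log2 ratio of 0.90. Both were higher in the dTAG-13 library, with intervals that did not overlap. An antisense gene at Mt2, Gm45774, had 33 and 73 UMIs, few beside the 9479 and 19290 of Mt2.

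Metallothionein RNA was concentrated in the Zfp42 gate. Mt2 stood there at 396 CPM untreated and 407 CPM with dTAG-13, and that gate held 61.3% of all untreated Mt2 UMIs and 51.0% of those with dTAG-13, from 8.41% and 11.4% of the cells. Mt1 stood there at 140 and 120 CPM. The Pim2 gate came near it for Mt1, with 122 and 101 CPM. The dissociation list summed to 654 and 568 CPM in the Zfp42 gate, the highest of the 8 gates in both libraries. The median mitochondrial share there was 5.29% and 5.38%. The part of these values in the metallothionein levels was not tested. In the T gate Mt2 was at 26.6 CPM untreated and 72.6 CPM with dTAG-13 and Mt1 at 19.0 and 48.4 CPM. In single cells, the Pearson correlation of log counts of Mt1 and Mt2 after thinning was 0.43 over 6144 untreated cells and 0.38 over 6607 dTAG-13 cells, a description of cells that share a library. Of the 62 untreated cells with most Mt1, 34 were also among the 62 with most Mt2, and with dTAG-13 it was 29 of 67.

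In the Sfn gate the metallothioneins went the other way. Mt2 was at 258 CPM untreated and 163 CPM with dTAG-13, a log2 ratio of -0.66, and Mt1 at 103 and 60.8 CPM, a log2 ratio of -0.76. Of the Sfn gate cells, 35.1% untreated and 16.7% with dTAG-13 were also in the Zfp42 gate, and the 9 pluripotent markers summed to 2140 and 834 CPM in it, with all 9 detected in both libraries. Among Sfn gate cells without Zfp42 the Mt2 levels were 88.4 and 85.7 CPM and the Mt1 levels 45.9 and 39.1 CPM. Among Sfn gate cells with Zfp42 both were lower with dTAG-13, though within 1.5-fold. Mt2 was at 505 and 395 CPM there, and Mt1 at 187 and 126 CPM, a log2 ratio of -0.57. In the 59 untreated and 473 dTAG-13 cells of the Sfn gate alone, both were lower with dTAG-13, Mt2 at 153 and 72.7 CPM and Mt1 with a log2 ratio of -0.89. The dissociation list in the whole Sfn gate summed to 492 and 359 CPM, and its part in the result was not tested.

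Counted by gate, 6 of 9 genes were at least 1.5-fold higher with dTAG-13 in the T gate, where 4.93% of all genes passed that fold upward and 1.05% downward. In the Sox2 gate 6 of 9 were higher, where 2.57% of genes were higher and 1.08% lower. These were the same 6 as over whole libraries. In the Tbx6 gate 5 of 9 were higher, where 5.46% of genes were higher and 3.1% lower. In the Meox1 gate 5 of 9 were higher, where 2.53% were higher and 0.939% lower. Cells in no gate had 6 of 9 higher, where 2.75% were higher and 1.12% lower. None of the 9 was lower in these sets of cells. Gstm1 in the Meox1 gate lay at the limit, with a log2 ratio of 0.60, and came within it under 9 of 13 alternatives, at 0.08 to 0.58. Mt2 in the Meox1 gate, at 0.82, did so under 5 of 13, at 0.22 to 0.49, and Mt1 in the Sox2 gate, at 0.62, under 3 of 13, at 0.55 to 0.58. Mt2 in the Tbx6 gate, at a log2 ratio of 1.74, came to 0.26 after thinning. In the Zfp42 gate 1 of 9, Alox15 with a log2 ratio of 0.69, was higher (1.56% of all genes) and none lower (0.68%), and Alox15 came within the limit under 4 of 11 alternatives, at 0.45 to 0.56. In the Sfn gate 1 of 9, Slc40a1, was higher (3.22%), and Mt1, Mt2 and Gpx4 were lower (3.58%). Gpx4 came within the limit there under 6 of 13 alternatives and Mt2 under 3 of 13, among them no doublet removal, at log2 ratios of -0.47 and -0.57. None of the 9 passed the fold either way in the Pim2 gate, where 2.90% of genes were higher and 2.82% lower, or in the Sox17 gate, where 6.15% were higher and 5.09% lower. All of these are single libraries, and the gates share the contrast from which the genes were chosen, so nothing beyond the values is read from the counts.

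Other values of the Sox2 gate also differed between the libraries. In it the 9 non-neural ectoderm markers summed to 167 CPM untreated and 502 CPM with dTAG-13, the 7 primed epiblast markers to 279 and 544 CPM, and the 8 definitive endoderm markers to 98.2 and 169 CPM, with every marker of the 3 lists detected in both libraries. In cells of the Sox2 gate alone these sums were 113 and 418 CPM, 110 and 224 CPM, and 39.8 and 128 CPM. Lower with dTAG-13 in the full Sox2 gate were the neuromesodermal progenitor markers, Sox2 itself among them, at 776 and 601 CPM. So were the presomitic mesoderm markers, at 223 and 145 CPM. Of the Sox2 gate cells, 7.69% untreated and 23.9% with dTAG-13 were also in the Sfn gate, 5.35% and 16.5% in the Pim2 gate, and 15.2% and 21.6% in the Zfp42 gate. The part of these cells in the differences of the 6 genes there was not tested.

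The counts depended on which overlapping cells were kept, in splits chosen after seeing the data. In Sox2 gate cells that were also in the Zfp42 gate (454 and 659 cells), none of the 9 passed the fold, where 2.20% of genes were higher and 0.675% lower. In Sox2 gate cells without Zfp42 (2535 and 2388 cells) 6 of 9 were higher, where 3.80% of genes were higher and 1.12% lower. There Gpx2 was at 2.64 and 17.5 CPM, Slc40a1 at 2.07 and 15.0 CPM, Gstm1 higher by a log2 ratio of 1.24, Alox15 at 3.87 and 11.4 CPM, Mt1 at 16.3 and 38.4 CPM and Mt2 at 27.5 and 77.7 CPM. In Sfn gate cells without Zfp42 (207 and 1114 cells) 3 of 9 were higher, where 4.43% of genes were higher and 3.14% lower, with Gpx2 at 4.44 and 23.7 CPM, Gstm1 at 19.5 and 41.7 CPM and Slc40a1 at 11.6 and 29.1 CPM. None of the 9 was 1.5-fold lower in those cells. In Sfn gate cells with Zfp42 (112 and 224 cells) none passed the fold, where 9.56% of genes were higher and 5.27% lower. The lowest log2 ratio there was that of Mt1, at -0.57.

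T gate cells without Sfn (1332 and 836) had 6 of 9 higher, where 5.24% of genes were higher and 0.92% lower. T gate cells with Sfn (55 and 123) had 3 of 9 higher, where 8.3% of genes were higher and 7.96% lower. Those were Gpx2 at 14.8 and 39.5 CPM, Gstm1 at 10.8 and 41.5 CPM, and Slc40a1 at 7.96 and 13.4 CPM, the last with overlapping counting intervals, while Mt1 was at 91.5 and 62.7 CPM, a log2 ratio of -0.54. Sox2 gate cells without Sfn (2759 and 2318) had 6 of 9 higher, where 3.16% of genes were higher and 1.07% lower. Sox2 gate cells with Sfn (230 and 729) had 1 higher, where 4.62% of genes were, and 1 lower, where 3.73% were. Slc40a1 was the higher one, at 16.2 and 25.2 CPM, and Mt1 the lower one, at 107 and 66.2 CPM. Pim2 gate cells without Zfp42 (182 and 739) had Gpx2, Gstm1 and Slc40a1 higher, where 4.74% of genes were higher and 3.64% lower. Pim2 gate cells with Zfp42 (76 and 156) had none higher, where 10.1% of genes were, and 2 lower, where 5.58% were: Slc40a1 at 14.5 and 7.67 CPM and Mt1 at 217 and 131 CPM.

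In cells of exactly 1 gate the T and Sox2 gates again had 6 of 9 higher, where 7.56% and 3.57% of genes were higher and 1.95% and 1% lower. The mesoderm gates differed from their full sets. In the Meox1 gate alone (691 and 439 cells) 2 of 9 were higher, where 2.49% of genes were higher and 1.69% lower. They were Alox15 at 0.827 and 2.49 CPM, from 12 and 24 UMIs, and Slc40a1 at 0.344 and 1.24 CPM, from 5 and 12 UMIs. Gpx2, Gstm1 and Mt2 were there at 1.10 and 1.24 CPM, 9.99 and 10.6 CPM, and 18.9 and 22.2 CPM. In the Tbx6 gate alone (207 and 59 cells) none was higher, where 6.42% of genes were. Gpx2 and Mt2 were lower, where 8.13% of genes were. Mt2 was at 9.68 and 5.13 CPM, from 42 and 7 UMIs, and Gpx2 at 3.92 and 0.732 CPM, from 17 and 1 UMIs. The counting intervals of both log2 ratios included equal levels, at -2.32 to 0.25 for Mt2 and -7.81 to 0.25 for Gpx2. Of Tbx6 gate cells, 1.38% untreated and 8.38% with dTAG-13 were also in the Sfn gate, and of Meox1 gate cells 1.42% and 5.75%. The shares also in the Zfp42 gate were 1.38% and 6.70% of Tbx6 gate cells and 1.53% and 3.67% of Meox1 gate cells. Without cells of the Zfp42 gate, Mt1 in the Tbx6 gate had a log2 ratio of 0.49, against 1.24 with them, and Mt2 in the Meox1 gate 0.47, against 0.82, so both came within 1.5-fold. The part of these shared cells in the Tbx6 and Meox1 values was not tested. In the Pim2 gate alone (70 and 289 cells) Gpx2, Gstm1 and Slc40a1 were higher, where 9.3% of genes were higher and 5.93% lower. Slc40a1 had 4 and 39 UMIs there, and the counting interval of its log2 ratio, -0.21 to 3.21, included equal levels. In the Sfn gate alone Gpx2 and Slc40a1 were higher, where 13.9% of genes were, and Mt1 and Mt2 lower, where 5.96% were. In the Sox17 gate alone none passed the fold, where 6.82% of genes were higher and 5.99% lower, and the Zfp42 gate alone held 21 and 29 cells, too few to be measured.

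**Figure D3:**
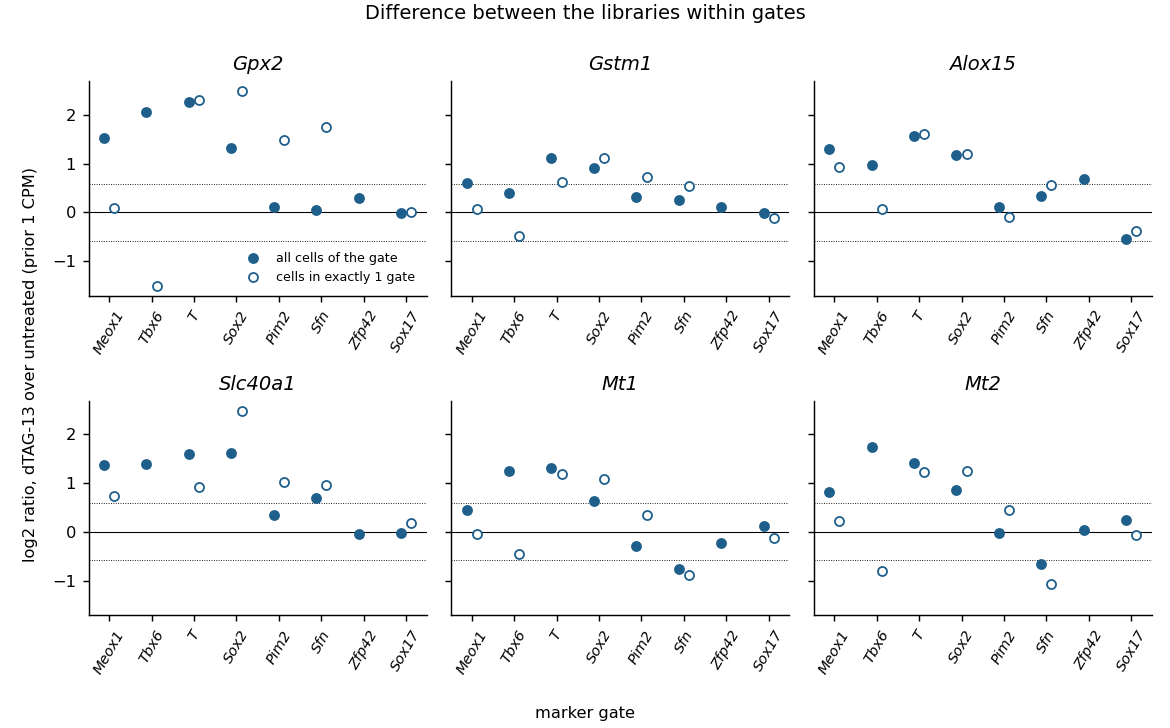
Log2 ratio of dTAG-13 over untreated within each marker gate for the 6 genes past 1.5-fold in the whole library, over all cells of a gate (filled) and over cells in exactly 1 gate (open); dotted lines mark 1.5-fold. In the T and Sox2 gates filled and open points both lie above the upper line. In the Tbx6 gate Gpx2 is at 2.05 filled and -1.51 open, the latter from 17 and 1 UMIs. The open Slc40a1 point of the Tbx6 gate and all open points of the Zfp42 gate are missing for want of UMIs or cells.

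The 1% of cells with most UMIs of a gene, 62 untreated and 67 dTAG-13 cells, held a large share of the UMIs of the scarce genes. For Slc40a1 they held 43.4% untreated (38.6 to 48.2) and 16.6% with dTAG-13 (15.0 to 18.4), against a median of 22.6% and 10.7% for genes of like level in the same library. For Gpx2 they held 42.1% and 23.3%, against 10.0% and 7.46%. For Alox15 the shares were 33.2% and 24.5%, against 17.3% and 11.1%. The untreated share was the higher one for each of these 3 genes, and a scarcer gene has a higher share by counting alone. Mt1 had 25.3% and 18.5% and Mt2 21.6% and 14.6%, against medians of 6.99% and 6.35% and of 5.57% and 5.38%. Gstm1 had 15.3% and 11.9%, against medians of 8.19% and 7.00%. Gpx4 had 12.4% and 11.1%, against medians of 3.96% and 4.90%. Gpx1 had 5.36% and 6.35%, above medians of 4.11% and 4.98%. The shares of Tfrc, 5.80% and 5.83%, lay close to the medians of 5.55% and 5.97%. Each such set of cells held between 1.07% and 3.15% of all UMIs of their library. The sets were deeper than their libraries, whose medians were 20073 and 20207 UMIs. Set medians ran from 23711 UMIs for Alox15 untreated to 51956 for Gpx1 with dTAG-13. After thinning to 5000 UMIs, 17 of the shares lay outside their counting interval and 1 within it, so the shares depend on depth.

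**Figure D4:**
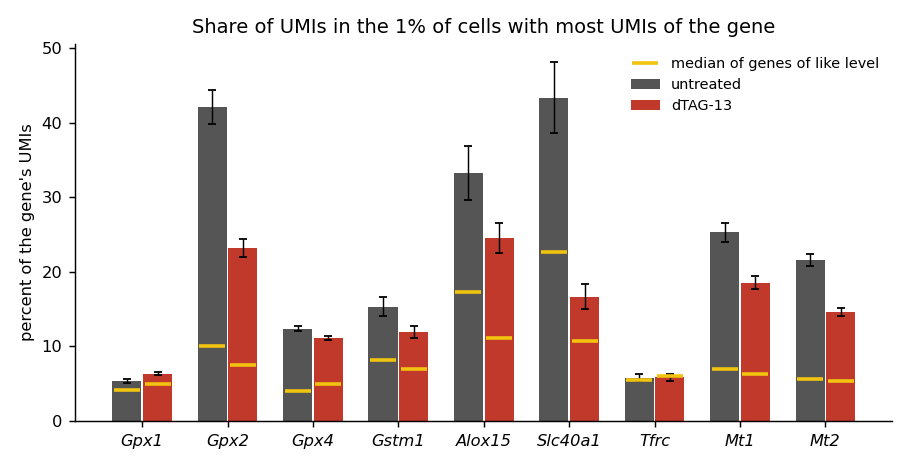
Percent of a gene's UMIs held by the 1% of cells with most UMIs of it, untreated in grey and dTAG-13 in red, with exact binomial intervals; yellow marks give the median of the same share over genes within a factor of 2 in level. Slc40a1 and Gpx2 reach 43.4% and 42.1% untreated, and the bars of Tfrc lie at their yellow marks.

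The cells at the top differed from gene to gene. Cells tied at the lowest count were taken in barcode order. For Gpx4 56 of 62 untreated and 63 of 67 dTAG-13 top cells were in the Zfp42 gate, and for Mt2 53 and 60. For Gpx2 22 and 27 were in the Sox17 gate and 18 and 19 in the Zfp42 gate, while 18 and 13 were in none. The Gpx2 top cells had 3170 and 2766 CPM summed over the 8 definitive endoderm markers, against 183 and 288 CPM in all cells. For Alox15 34 and 40 were in the T gate and 20 and 23 in the Pim2 gate, with 14 and 12 of them taken from ties of 58 and 29 cells. Notochord markers summed in the Alox15 top cells to 96.0 and 96.1 CPM, against 16.4 and 28.7 CPM in all cells. Other lists were above all cells too. Neuromesodermal progenitor markers summed to 1050 and 813 CPM, against 672 and 500 CPM, and primed epiblast markers to 657 and 635 CPM, against 223 and 446 CPM. Somite markers, at 67.3 and 65.6 CPM against 233 and 154 CPM, and spinal cord markers, at 160 and 107 CPM against 237 and 172 CPM, were below. For Slc40a1, 37 of 62 untreated top cells were in the Zfp42 gate and 27 in the Sfn gate. With dTAG-13, 20 of 67 were in the Zfp42 gate and 49 in the Sfn gate. Of the 62 untreated cells 59 had at least 2 UMIs and 3 were taken from 246 cells with 1 UMI. Among the 59, 37 were in the Zfp42 gate and 26 in the Sfn gate, and the pluripotent markers summed to 3868 CPM. Over all its top cells the pluripotent markers summed to 3675 CPM untreated and 745 CPM with dTAG-13, and the non-neural ectoderm markers 537 and 1056 CPM. Erythroid and macrophage markers, which would mark cells known for ferroportin, summed in its top cells to 1.14 and 1.06 CPM and to 5.68 and 3.52 CPM.

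Genes with the most similar pattern were sought by Pearson correlation of log2 levels over the 16 gate-by-library profiles, which overlap in cells, among 6786 genes. The closest to Gpx2 were Sorl1 (0.97), Rffl (0.97) and Rabac1 (0.96), and to Slc40a1 Tnk1 (0.97), Dstn (0.96) and Jup (0.96). Mt2 was closest to Utf1 (0.99), Dpys (0.98) and Tex19.1 (0.98), and Mt1 to Mt2 (0.97), Mta3 (0.96) and Rbpms (0.96). Gpx4 was closest to Ostf1, Klf9 and Pfkp, from 0.97 to 0.98, and Gpx1 to Phf13, Usp48 and Klhl13, from 0.97 to 0.98. Gstm1 came closest to Chmp4c, Syngr1 and mt-Co1, each at 0.96. Tfrc was closest to Plcb3 (0.94), Ncoa4 (0.92) and Epn2 (0.92). For Alox15 the nearest, Ifi27l2a, reached 0.91, and Ttyh1 and Psmb8 reached 0.87.

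Other genes of the same pathways are given by counts over whole libraries, where 2.32% of all genes were higher and 0.832% lower, so that counts of 0 or 1 in lists of this size are not read as results about them. Of 29 measured genes of glutathione synthesis and transfer, 4 were higher and 2 lower with dTAG-13. The transferases Gstm2, at 8.68 and 15.4 CPM, and Gstt2, at 7.25 and 14.1 CPM, were among the higher ones. Of 25 other peroxidase, thioredoxin and superoxide dismutase genes 1 was higher, Txnip, which encodes an inhibitor of thioredoxin, at 94.3 and 143 CPM. None of 15 genes of the NRF2 pathway passed the fold, and its factor Nfe2l2 had a log2 ratio of 0.31. None of 22 lipoxygenase and lipid peroxidation genes did, with the widest difference among those named in Acsl3, a fatty acid activating enzyme, at a log2 ratio of 0.43.

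None of 28 measured genes of iron uptake, storage, export and sensing passed 1.5-fold, and their median log2 ratio was 0.02. Aco1, which encodes one of the proteins that bind the hairpins shown above, was at 36.2 CPM untreated and 29.1 CPM with dTAG-13, a log2 ratio of -0.31. Of 21 genes of metallothionein, zinc and copper handling 1 was higher, Mt4, named after its value was seen, and the copper chaperone Atox1 was at 485 and 624 CPM. None of 22 genes of selenoprotein synthesis and other selenoproteins passed the fold, and Selenof had a log2 ratio of -0.34. The list medians ran from 0.00 to 0.18, the latter in the dissociation list, in which none of 16 passed the fold and Ier3 was at 7.97 and 12.2 CPM.

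**Figure D5:**
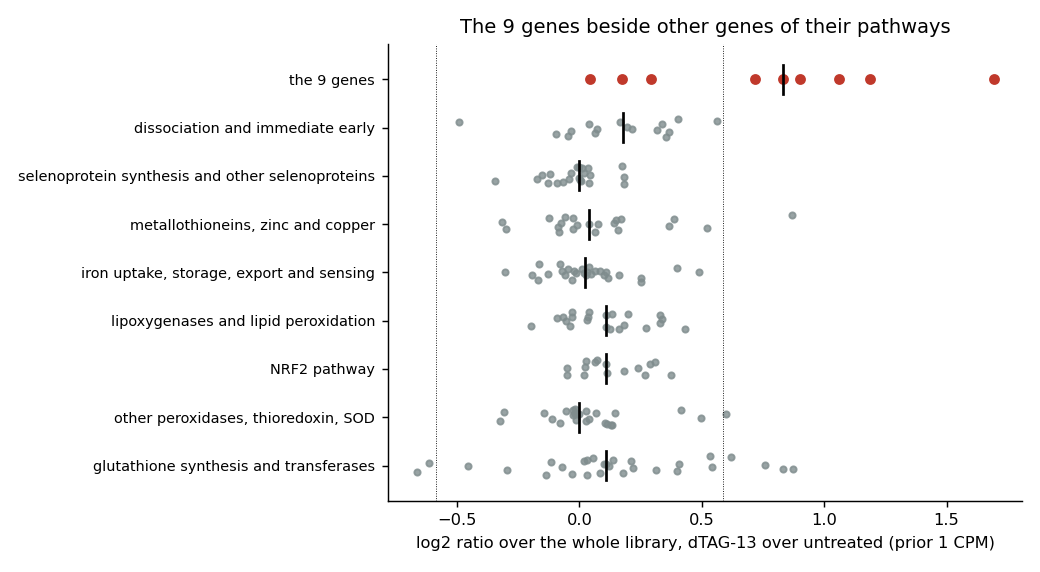
Log2 ratio of dTAG-13 over untreated in the whole library for the 9 genes (red) and for the measured genes of 8 pathway lists (grey, spread vertically for legibility), with bars at the medians and dotted lines at 1.5-fold. The bar of the 9 genes, chosen from this contrast, lies at 0.83 and those of the lists between 0.00 and 0.18.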

How the data were processed

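Single-cell RNA sequencing was analysed for 2 libraries of mouse gastruloids, 1 per group. The values deposited by the authors are UMI counts, whole numbers per gene and barcode with no normalization. Cell Ranger 6.1.2 and the mm10 build are named in the submitters' processing notes. Gene positions are from GENCODE M21 (GRCm38), in which 32158 of 32285 identifiers matched, and upstream windows from RefSeq (GRCm38.p6).

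Barcodes with fewer than 1000 genes or over 10% mitochondrial UMIs were removed (630 untreated, 693 dTAG-13). The automatic threshold of Scrublet (scanpy 1.11.5) marked 1 and 0 doublets and so had not worked. The barcodes with the highest scores were removed instead, 0.8% per 1000 barcodes (424 and 496). Counts were summed over cells and scaled to the library or gate total (CPM). Log2 ratios had 1 CPM added, needed at least 10 UMIs over both libraries and, in gates, at least 50 cells in each, and are called past 1.5-fold. Levels have exact Poisson intervals, shares exact Clopper-Pearson intervals, and ratios exact conditional ones without the added CPM. For detection, each cell was thinned to 5000 UMIs, which left out 87 and 81 shallower cells. The ratio step was tested on simulated counts.

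The 9 genes and the lists of pathway and marker genes were chosen with earlier results of these data known. From each pathway list the text names genes of at least 10 CPM past the fold, at most 3 each way, or else the 1 with the greatest ratio. As similar genes it names the 3 with the highest correlation, among genes at 20 CPM or more in 1 profile. Alternatives covered the added CPM, edgeR 4.0.16 and DESeq2 1.42.0 scaling, cell filters, doublets, thinning, cell weights and gates. Splits of gates by Zfp42 or Sfn were chosen after seeing the data. For the 1% of cells with most UMIs of a gene, ties were broken by barcode order.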

Additional observations from a re-analysis of the deposited data

Results flagged for a closer look

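The metallothionein genes had opposite directions in different gates. Mt1 had a log2 ratio of dTAG-13 over untreated of 1.30 in the T gate and -0.76 in the Sfn gate. Mt2 had 1.74 in the Tbx6 gate and -0.66 in the Sfn gate. After thinning to 5000 UMIs the Tbx6 gate value of Mt2 was 0.26. The difference between gates was not tested, since each gate has 1 library per group and gates share cells. Beside these stand values without cells of the Zfp42 gate, for which the Sfn gate log2 ratios were -0.23 for Mt1 and -0.04 for Mt2. In Sfn gate cells that were also in the Zfp42 gate they were -0.57 and -0.35. In cells of exactly 1 gate the Mt2 value of the Tbx6 gate was -0.80, from 59 dTAG-13 cells and 42 and 7 UMIs. Its counting interval, -2.32 to 0.25, included equal levels. The Sfn gate values in such cells were -0.89 for Mt1 and -1.06 for Mt2.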

How the results depend on the processing

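No paired analysis was possible because each group had 1 library, and no library could be left out. The count of 6 higher and 0 lower genes over whole libraries was the same under all 10 alternatives tried. All 9 genes pass the filter on UMIs, so leaving it out could not change the count. Without the filter 1.40% of 32285 genes were higher and 0.502% lower. Among 72 gene and gate pairs, 24 were higher, with 19 to 27 under the alternatives, and 3 were lower. In the 8 gates 1.56% to 6.15% of all genes were higher and 0.68% to 5.09% lower. Fewer pairs could be measured in cells of exactly 1 gate, with gates of at least 5 UMIs and without cells of the Zfp42 gate. Those counts are therefore not like for like. The lower count was 1 without doublet removal, 1 with gates of at least 1 UMI, 5 after thinning to 5000 UMIs, and 0 without cells of the Zfp42 gate, an alternative chosen after seeing the data. In cells of exactly 1 gate, 3 log2 ratios that were past 1.5-fold in the full Tbx6 gate changed sign. They were -1.51 for Gpx2, -0.46 for Mt1 and -0.80 for Mt2. Their counting intervals all included equal levels, at -7.81 to 0.25, -1.75 to 0.54 and -2.32 to 0.25 in that order. Without cells of the Zfp42 gate, Gpx4 in the Sfn gate changed sign, to 0.11. Scaling by TMM or DESeq2 size factors shifted whole-library log2 ratios by less than 0.1. Levels within gates moved outside their counting interval in 520 comparisons with an alternative and stayed within it in 425. Among log2 ratios within gates, 687 stayed within counting error of the main value and 208 moved further. A further 4, all past 1.5-fold in the main setting, changed sign. Ratios within 1.5-fold that changed sign are not counted apart from the 687 and 208. Shares of UMIs in the top 1% of cells depended on depth, as given above. Precision is low in the Sox17 gate (110 untreated cells) and the Tbx6 gate (179 dTAG-13 cells), where counting intervals are wide.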
